A study of Mus musculus with 48 samples.

Results

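The MHC class I and immunoproteasome genes described here are 10 mouse genes, namely B2m, H2-K1, H2-D1, H2-Q8, Tap1, Tap2, Tapbp, Psmb8, Psmb9 and Psmb10. They were chosen by gene name: every probe besides controls that carried 1 of these names on the array was taken, which gave 12 of the 55681 probes. H2-K1 and Psmb9 had 2 probes each, and each gene is reported by its lead probe, the one with the highest mean signal over the 48 arrays. Expression was measured on 1-color Agilent mouse arrays in 8 groups of 6 arrays. Male Swiss pups (the methods name the strain OF1) received intraperitoneal interleukin-1 beta (IL1B, 10 ng per g) or phosphate-buffered saline (PBS) from postnatal day 1 to day 5, and cells were taken at P5 or P10. The labels put the P5 collection 2 h after the last injection, whereas the methods give a longer interval. Brains without cerebellum and olfactory bulbs were pooled, O4+ cells of the oligodendrocyte lineage were bound on magnetic beads, and CD11B+ cells, mainly microglia, were then taken from the O4-negative cells of the same animals. The 8 groups were O4+ and CD11B+ cells at P5 and at P10, each from PBS and from IL1B pups. The descriptions of the P10 samples repeat the P5 text, so their titles and stage entries were used.

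MHC class I molecules show peptides from inside the cell to CD8 T cells. A heavy chain encoded in the H2 locus pairs with the light chain B2m, and the peptide is carried into the endoplasmic reticulum by the TAP transporter and loaded with the help of tapasin. In the immunoproteasome, 3 catalytic subunits, Psmb8, Psmb9 and Psmb10, replace Psmb5, Psmb6 and Psmb7 of the constitutive proteasome. Interferons are known inducers of most of these genes, and healthy cells of the oligodendrocyte lineage are known for low class I levels.

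All values below are log2 intensities after quantile normalization, done over 24 arrays for comparisons inside a cell type and over 48 for comparisons between O4+ and CD11B+ cells. A probe was called when its limma adjusted p over all 55681 probes was under 0.05 and the ratio of group medians passed 1.5 in either direction. The lead probes of all 10 genes were well above background on all 48 arrays, on which 54.1% to 66.4% of spots were. The groups hold 6 samples each that the study describes as independent, and the p-values measure the spread between those pools. H2 heavy chains are close relatives in sequence, so signal from one gene on the probe of another cannot be told apart here.

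One array has to be described before the results. The library labelled CD11B+ P10 PBS replicate 6 was the highest of its group for 10 of 10 genes, and for 9 of 10 it was at or above the lowest IL1B array. H2-Q8 stood at 12.45 in it against 9.04 to 10.12 in the other 5 PBS arrays and 11.82 to 13.19 in the IL1B arrays. B2m stood at 16.78 against 16.05 to 16.27, and Psmb9 at 13.03 against 11.86 to 12.15. Genes outside the list moved with them. Nlrc5, a transactivator of class I genes, was at 9.59 against 5.68 to 7.22, and the chemokine gene Ccl5 was at 11.7 against 7.67 to 8.20. The summed linear signal of 7 neutrophil and monocyte markers was 154300 in this array against 27940 to 39320 in the other 5, whereas the sum over 15 microglia markers, 1629000, lay inside their range of 1571000 to 1779000. The array was kept under its label, and differences that rest on it are also given without it.

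**Figure D1:**
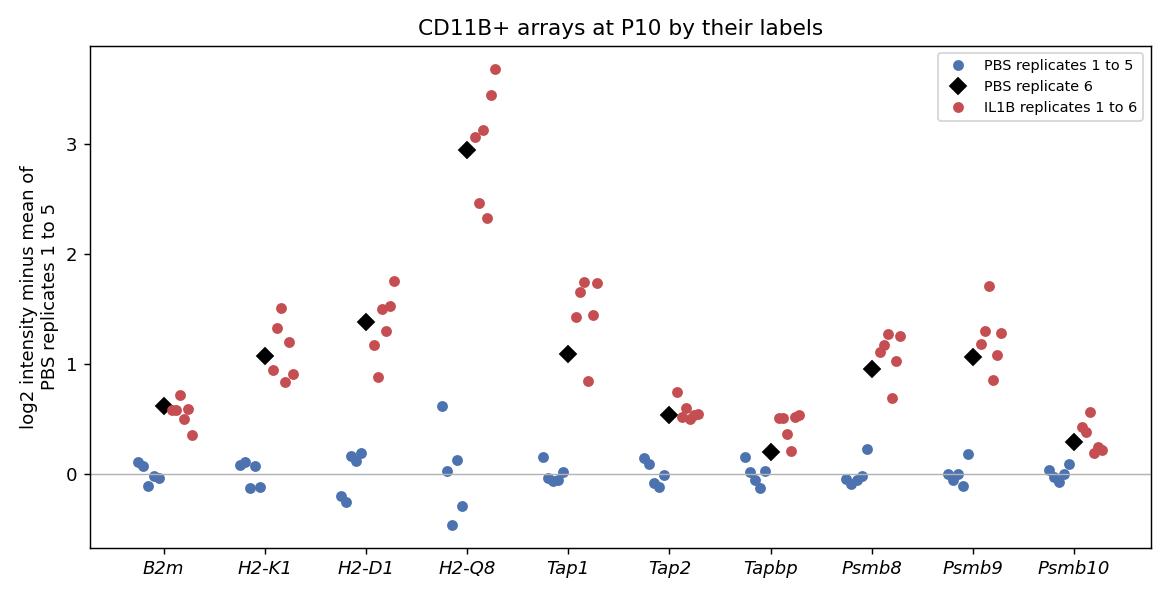
Log2 intensity of the 10 genes on the 12 CD11B+ P10 arrays, each minus the mean of PBS replicates 1 to 5 (y axis; genes on the x axis). Blue points are PBS replicates 1 to 5, the black diamond is PBS replicate 6 and red points are the 6 IL1B arrays. For every gene the diamond lies above the blue points, and for H2-Q8 it lies among the red ones.

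The cell type labels were checked against marker lists. All 11 oligodendrocyte lineage markers were called lower in CD11B+ than in O4+ cells in each of the 4 comparisons of cell types, and 13 of 15 microglia markers were called higher. The exceptions were Siglech and Itgam, the gene of CD11B itself, whose lead probe was 2.00 lower on the log2 scale in CD11B+ than in O4+ cells at P5 under PBS. Microglia markers were well above background in every O4+ group, with a summed signal of 360600 to 443500 at P5 under PBS against 1316000 to 1391000 in the CD11B+ cells of that age and treatment. The sums include the bright probes of Siglech and Itgam, and the median log2 difference over the 15 markers was 3.01.

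The genes lie on chromosome 17, apart from B2m on chromosome 2 and Psmb10 on chromosome 8. In the mm9 coordinates of the array files, the lead probe of B2m covers chr2:121978401-121978460, that of H2-K1 chr17:34133055-34133114, that of H2-D1 chr17:35403886-35403945 and that of H2-Q8 chr17:35532392-35532451. The lead probes of Tapbp (chr17:34065963-34066022), Psmb9 (chr17:34319174-34319233), Tap1 (chr17:34330854-34330913), Psmb8 (chr17:34337771-34337830) and Tap2 (chr17:34353116-34353175) lie between 34065963 and 34353175 on that chromosome, a stretch that also holds the H2-K1 probe, and that of Psmb10 covers chr8:108459677-108459736. Whether a probe lies in an exon or another part of its gene was not looked up.

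Because the members moved together, the 250 bases before the transcription start were read for the 8 members with a RefSeq promoter entry (GRCm38.p6), which leaves H2-Q8 and Tap2. Both strands were searched for exact matches to 4 motifs. Variants that differ from a motif by a base were not searched, so a window without a match can still hold such a variant. The core of the interferon-stimulated response element, GAAANNGAA, was in 7.13% of all 32841 promoter windows and in that of B2m. The gamma-activated site, TTCNNNGAA, was in 7.02% of windows and in that of Psmb8. The NF-kappaB site was in 3.90% of windows and in those of B2m, H2-K1 and H2-D1, where the matches in H2-K1 and H2-D1 are 2 overlapping sites. The CCAAT box was in 33.9% of windows and in those of 6 members, which are B2m, H2-K1, H2-D1, Tap1, Tapbp and Psmb9. The windows that hold an interferon or NF-kappaB motif, with 1 of the 2 for H2-K1, and that of Tap1, are shown 5′ to 3′ in the direction of the gene. Every match to the 4 motifs is in capitals. The windows are B2m at chr2:122147437-122147686 (plus strand), H2-K1 at chr17:34000348-34000597 (minus strand), H2-D1 at chr17:35262844-35263093 (plus strand), Psmb8 at chr17:34197945-34198194 (plus strand) and Tap1 at chr17:34187306-34187555 (plus strand). The H2-K1 window not shown, chr17:34000334-34000583, overlaps the other. It holds the same NF-kappaB sites and 1 more CCAAT box, at bases -6 to -2.
B2m: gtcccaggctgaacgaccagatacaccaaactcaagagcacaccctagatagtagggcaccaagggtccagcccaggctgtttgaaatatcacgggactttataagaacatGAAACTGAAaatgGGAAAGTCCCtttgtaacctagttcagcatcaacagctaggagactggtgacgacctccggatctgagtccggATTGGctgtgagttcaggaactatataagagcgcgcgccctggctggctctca
H2-K1: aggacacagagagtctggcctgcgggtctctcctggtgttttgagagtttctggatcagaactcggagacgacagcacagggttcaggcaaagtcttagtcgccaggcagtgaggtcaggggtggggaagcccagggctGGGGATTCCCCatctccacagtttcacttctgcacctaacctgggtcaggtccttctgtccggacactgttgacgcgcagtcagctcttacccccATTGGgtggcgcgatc
H2-D1: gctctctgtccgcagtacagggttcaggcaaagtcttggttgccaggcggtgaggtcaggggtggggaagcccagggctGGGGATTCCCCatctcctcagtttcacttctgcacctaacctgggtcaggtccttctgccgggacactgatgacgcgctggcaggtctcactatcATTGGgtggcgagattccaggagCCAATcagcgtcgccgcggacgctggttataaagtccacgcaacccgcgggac
Psmb8: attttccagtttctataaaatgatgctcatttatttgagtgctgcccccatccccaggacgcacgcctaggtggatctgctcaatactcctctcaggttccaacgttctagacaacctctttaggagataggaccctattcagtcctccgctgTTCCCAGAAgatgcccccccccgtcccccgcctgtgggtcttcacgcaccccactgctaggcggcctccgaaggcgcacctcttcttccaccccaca
Tap1: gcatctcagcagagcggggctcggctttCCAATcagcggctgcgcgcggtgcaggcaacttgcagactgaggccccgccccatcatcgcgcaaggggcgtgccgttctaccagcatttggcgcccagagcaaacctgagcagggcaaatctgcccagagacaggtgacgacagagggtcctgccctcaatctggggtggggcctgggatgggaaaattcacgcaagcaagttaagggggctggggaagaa
The window of Tap1 is at the same time most of that of Psmb9: both genes start there on opposite strands, and their windows share 225 of 250 bases (90%). A match in this list is only a match of letters.

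After IL1B, 5 to 8 of the 10 genes were called higher in each cell type and at each age, and none was called lower in any of the 4 IL1B comparisons. In O4+ cells at P5, 8 of 10 were called higher, against 3.43% of all probes called higher and 1.49% called lower. In O4+ cells at P10, 8 of 10 were called higher, against 2.49% of all probes higher and 1.42% lower. For CD11B+ P5 cells the count was 5 of 10, where all probes gave 4.05% higher and 5.25% lower. For CD11B+ P10 cells it was 6 of 10, against 1.09% higher and 1.08% lower, and 7 of 10 without PBS replicate 6, against 2.54% higher. The median log2 difference over the 10 genes was 1.09 in O4+ P5, 1.38 in O4+ P10, 0.62 in CD11B+ P5 and 0.93 in CD11B+ P10 cells (1.10 without PBS replicate 6), whereas the median over all probes lay between -0.04 and 0.00. All 6 IL1B arrays lay above all 6 PBS arrays for 9, 8, 7 and 1 of the 10 genes in these 4 comparisons, in that order, against 4.64%, 2.91%, 5.86% and 2.07% of all probes. The count of 1 in CD11B+ P10 cells rests on PBS replicate 6, and without that array it was 10 of 10, against 5.11% of all probes. In bulk samples, a change in the cells present and a change of RNA per cell cannot be told apart. In each of the 6 cases in which 1 slide held both groups of an IL1B comparison, the difference within that slide was positive for 10 of 10 genes. These cases held 1 IL1B and 4 PBS arrays, 1 and 2, 2 and 5, 1 and 1, 4 and 1, and 5 and 2. The lowest differences were 0.006 for Psmb10 in O4+ P10 cells (slide 9) and 0.05 for B2m in CD11B+ P5 cells (slide 4). The share of all probes with a positive difference within these slides is not given.

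These counts rested on single arrays and on the slides mainly in CD11B+ cells. At P10 the count of 6 was 1 without PBS replicate 2, 2 without PBS replicate 3, 3 without PBS replicate 1 and 3 without IL1B replicate 5, while 0.381%, 0.411%, 0.483% and 0.508% of all probes were called higher in these fits. By gene, with each of the 12 arrays left out in turn, Tap1 was called in 12 fits, H2-K1 in 5, H2-D1 in 3, H2-Q8 in 8, Psmb8 in 11 and Psmb9 in 10. With the slide as a block the count was 0 by limma, but so was that over all 55681 probes; the median difference of the 10 genes was 0.48, and 5 of them had an unadjusted p under 0.05. With PBS replicate 6 left out as well the count was 3, against 0.295% of all probes. On slide 7, which held 5 IL1B arrays and PBS replicate 6 and 1 other PBS array, the median within-slide difference was 0.48, and 0.94 without replicate 6. With the slide as a block, 7, 7 and 3 of 10 genes were called higher in O4+ P5, O4+ P10 and CD11B+ P5 cells, against 2.55%, 1.65% and 2.34% of all probes.

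**Figure D2:**
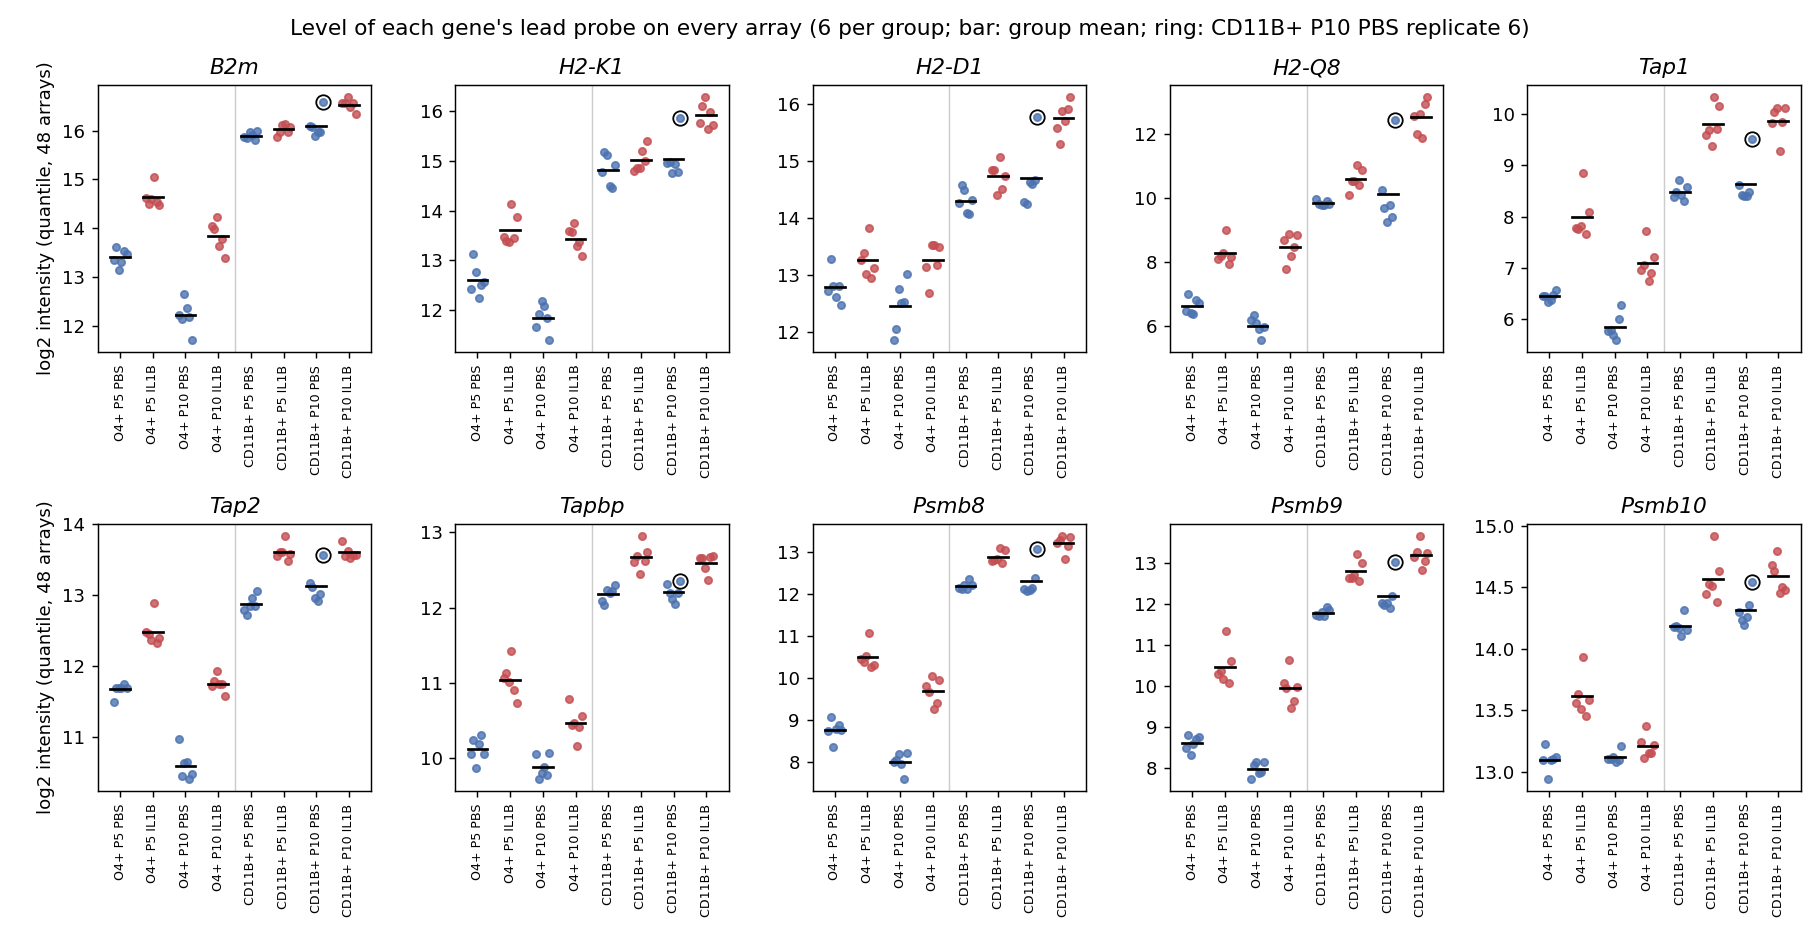
Log2 intensity of each gene's lead probe on every array (y axis, quantile normalization over 48 arrays) in the 8 groups (x axis), with PBS in blue, IL1B in red, group means as bars and CD11B+ P10 PBS replicate 6 ringed. All 4 O4+ group means lie below all 4 CD11B+ group means in each panel.

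**Figure D3:**
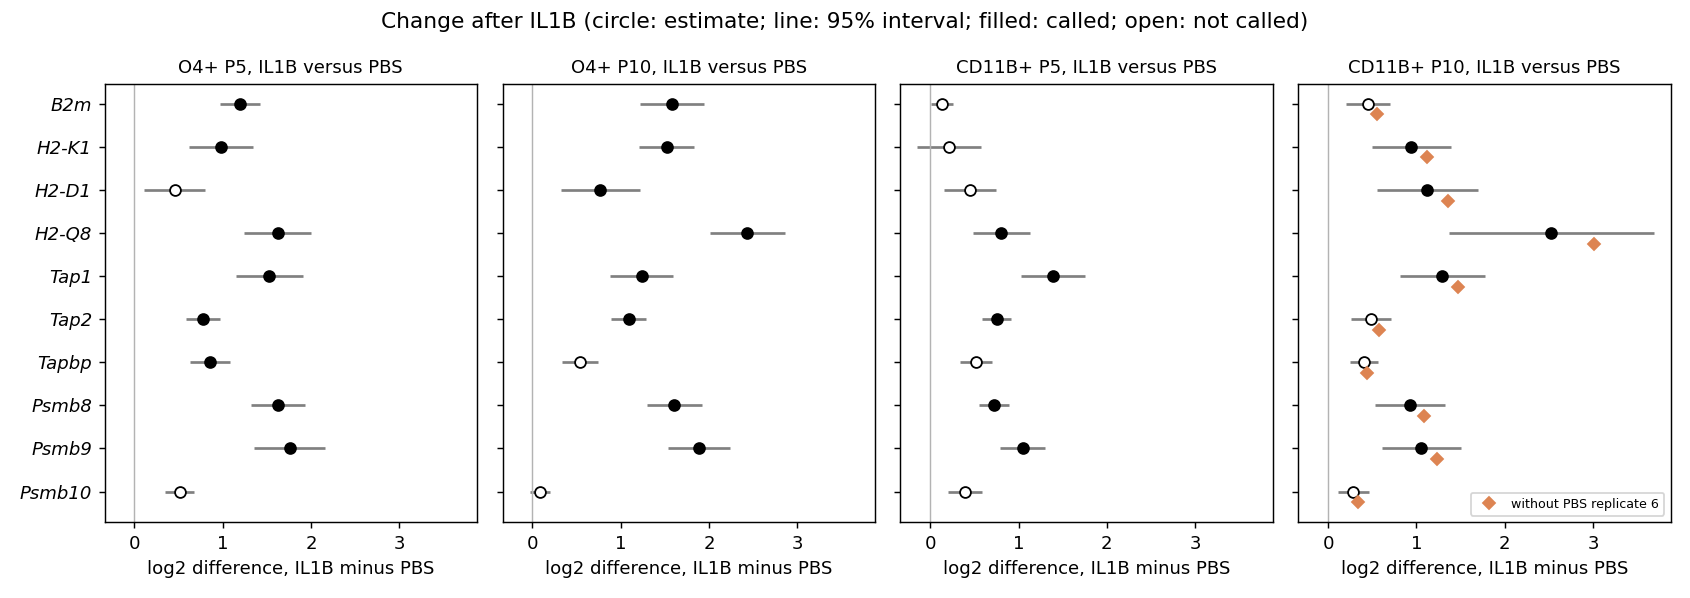
Log2 difference of IL1B minus PBS with its 95% interval (x axis) for the 10 genes (y axis) in the 4 comparisons. Filled circles are called genes, and orange diamonds in the last panel are the values without PBS replicate 6. The largest of these differences is that of H2-Q8 in CD11B+ P10 cells, 2.52 (3.01 without replicate 6).

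B2m encodes the light chain that every class I heavy chain needs at the cell surface. In O4+ cells at P5 its lowest, median and highest values were 13.13, 13.39 and 13.59 under PBS and 14.44, 14.52 and 14.96 after IL1B. At P10 they were 11.76, 12.23 and 12.67 under PBS and 13.37, 13.85 and 14.20 after IL1B. At both ages the 6 IL1B arrays lay above the 6 PBS arrays. The log2 difference was 1.20 ± 0.10 (SE; limma adjusted p 1.94e-05) at P5 and 1.58 ± 0.17 (limma adjusted p 0.000918) at P10, ratios of medians of 2.19 and 3.08.

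In CD11B+ cells B2m was near the top of the array's range already under PBS, with values of 15.96, 16.04 and 16.16 at P5. After IL1B they were 16.04, 16.19 and 16.30, and the groups overlapped (difference 0.13 ± 0.06, limma adjusted p 0.148). At P10 the PBS arrays ran from 16.05 over a median of 16.19 to 16.78, the last being replicate 6, and the IL1B arrays from 16.52 over 16.75 to 16.88. The difference of 0.45 ± 0.11 (limma adjusted p 0.0424) had a ratio of medians of 1.47 and was not called. Without replicate 6 it was 0.55 ± 0.07 (limma adjusted p 0.00121, ratio 1.52), which was called. The response of B2m was larger in O4+ than in CD11B+ cells, by 1.11 ± 0.12 (limma adjusted p 1.83e-06) at P5 and by 1.20 ± 0.21 (limma adjusted p 0.00128) at P10, or 1.10 ± 0.19 (limma adjusted p 0.00124) without replicate 6.

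H2-K1 and H2-D1 are the classical heavy chains. H2-K1 in O4+ cells at P5 ran from 12.27 over a median of 12.55 to 13.11 under PBS and from 13.35 over 13.44 to 14.10 after IL1B. At P10 the values were 11.47, 11.92 and 12.21 under PBS and 13.07, 13.45 and 13.72 after IL1B. No IL1B array of O4+ cells was as low as a PBS array of its age. The difference was 0.98 ± 0.17 (limma adjusted p 0.0019) at P5 and 1.52 ± 0.14 (limma adjusted p 0.000767) at P10.

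In CD11B+ cells at P5, H2-K1 overlapped between PBS (14.49, 14.91 and 15.27) and IL1B (14.86, 15.00 and 15.52), with a difference of 0.22 ± 0.16 (limma adjusted p 0.439). At P10 it ran from 14.81 over 15.02 to 16.02 under PBS and from 15.78 over 16.02 to 16.45 after IL1B. The highest PBS value was again that of replicate 6, and the other 5 PBS arrays ended at 15.06, below every IL1B array. The difference was 0.94 ± 0.20 (limma adjusted p 0.0262), a ratio of medians of 2.00, and 1.12 ± 0.13 (limma adjusted p 0.00087) without replicate 6. The second probe of H2-K1, at chr17:34133984-34134043, was called in the same 3 comparisons, with differences of 0.75, 1.24 and 1.52. In CD11B+ cells at P5 it gave 0.57 ± 0.13 (limma adjusted p 0.00639), with a ratio of 1.34 that kept it from being called.

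H2-D1 moved less in O4+ cells than the other heavy chains on the list. Its values at P5 were 12.48, 12.76 and 13.25 under PBS and 12.94, 13.17 and 13.79 after IL1B, with 2 of 6 IL1B arrays above all PBS arrays. The difference of 0.46 ± 0.16 (limma adjusted p 0.0694) was not called. At P10 it ran from 11.90 over 12.54 to 13.01 and after IL1B from 12.70 over 13.31 to 13.52. The difference of 0.77 ± 0.20 (limma adjusted p 0.0331) was called although 1 IL1B array lay in the PBS range. The call was kept in 4 of 12 fits with 1 array left out. It was lost without PBS replicates 1, 2, 4 or 5 or IL1B replicates 3, 4, 5 or 6, with differences from 0.66 to 0.79.

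In CD11B+ cells H2-D1 gave 0.45 ± 0.13 (limma adjusted p 0.0305) at P5, where the PBS values were 14.10, 14.33 and 14.62 and the IL1B values 14.44, 14.84 and 15.15. The ratio of medians, 1.43, was too small for a call. At P10 the PBS values were 14.28, 14.67 and 15.91 and the IL1B values 15.41, 15.93 and 16.28. The difference was 1.12 ± 0.26 (limma adjusted p 0.0318), and 1.35 ± 0.16 (limma adjusted p 0.000957) without replicate 6. The response at P5 was not shown to differ between the cell types for H2-D1 (O4+ minus CD11B+ 0.05, 95% interval -0.39 to 0.49).

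H2-Q8 is a heavy chain gene of the Q region, which holds nonclassical class I genes. In O4+ cells it ran from 6.63 over 6.85 to 7.25 at P5 under PBS and from 8.18 over 8.41 to 9.21 after IL1B. At P10 it ran from 5.82 over 6.30 to 6.61 under PBS and from 8.04 over 8.81 to 9.10 after IL1B. Its differences of 1.62 ± 0.17 (limma adjusted p 8.6e-05) and 2.43 ± 0.19 (limma adjusted p 0.000501) correspond to ratios of 2.93 and 5.70. The response was 0.81 ± 0.27 larger at P10 than at P5 (interaction, limma adjusted p 0.0455), a call that was kept in 8 of 24 fits with 1 array left out and lost with normexp, the methods' t-test, or the slide, the scan day or the replicate number as a block.

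H2-Q8 gave in CD11B+ cells 9.60, 9.64 and 9.81 at P5 under PBS and 9.96, 10.43 and 10.97 after IL1B, groups that did not overlap (0.80 ± 0.15, limma adjusted p 0.00196, ratio 1.72). At P10 the IL1B arrays were at 11.82, 12.59 and 13.19 against 9.04, 9.58 and 12.45 under PBS. The difference of 2.52 ± 0.53 (limma adjusted p 0.024) was a ratio of medians of 8.09, and without replicate 6 it was 3.01 ± 0.28 (limma adjusted p 0.000362, ratio 8.37). The response grew with age in CD11B+ cells as well, by 1.72 ± 0.56 (limma adjusted p 0.0379), or by 2.21 ± 0.31 (limma adjusted p 4.08e-05) without replicate 6. With 1 array left out this call was kept in 9 of 24 fits, and it was lost with the slide or the scan day as a block. At P5 the response was larger in O4+ than in CD11B+ cells by 0.90 ± 0.23 (limma adjusted p 0.0114, call lost with the slide as a block). The P10 difference of 0.08 had a 95% interval from -1.06 to 1.22. Without replicate 6 the P10 difference was -0.38 (95% interval -1.08 to 0.31).

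Tap1 and Tap2 together form the peptide transporter of the endoplasmic reticulum. Tap1 in O4+ cells was at 6.60, 6.72 and 6.84 at P5 under PBS and at 7.92, 8.05 and 9.08 after IL1B (1.53 ± 0.17, limma adjusted p 0.00013). At P10 it was at 5.87, 6.05 and 6.54 under PBS and at 7.02, 7.27 and 7.98 after IL1B (1.24 ± 0.16, limma adjusted p 0.00191). The groups did not overlap at either age. In CD11B+ cells Tap1 had the largest response of the 10 genes at P5, from 8.08, 8.22 and 8.49 to 9.18, 9.52 and 10.20 (1.39 ± 0.16, limma adjusted p 9.44e-05, ratio 2.46). At P10 it went from 8.17, 8.22 and 9.32 under PBS to 9.08, 9.78 and 9.98, and 5 of 6 IL1B arrays were above replicate 6, the highest PBS array. That difference was 1.29 ± 0.22 (limma adjusted p 0.0157), and 1.47 ± 0.15 (limma adjusted p 0.00058) without it. The responses of Tap1 in the 2 cell types were not shown to differ: O4+ minus CD11B+ was 0.23 (95% interval -0.27 to 0.72) at P5 and 0.02 (-0.55 to 0.58) at P10, or -0.16 (-0.62 to 0.31) without replicate 6.

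Tap2 in O4+ cells was at 11.55, 11.75 and 11.80 at P5 under PBS and at 12.35, 12.44 and 12.89 after IL1B, a difference of 0.78 ± 0.09 (limma adjusted p 0.000131). At P10 it was at 10.54, 10.67 and 11.06 and after IL1B at 11.63, 11.80 and 11.98, a difference of 1.09 ± 0.09 (limma adjusted p 0.000565). In CD11B+ cells at P5 it rose from 12.71, 12.85 and 13.07 to 13.49, 13.61 and 13.86 (0.75 ± 0.08, limma adjusted p 3.01e-05). In these 3 comparisons the groups did not overlap. At P10 in CD11B+ cells the values were 12.92, 13.08 and 13.59 under PBS and 13.55, 13.59 and 13.79 after IL1B, with a difference of 0.48 ± 0.10 (limma adjusted p 0.0252) and a ratio of 1.42 that was not called. Without replicate 6 it was 0.57 ± 0.06 (limma adjusted p 0.000866), with a ratio of 1.47 and again no call. At P10 the O4+ response exceeded that of CD11B+ cells by 0.68 ± 0.14 (limma adjusted p 0.00529), or by 0.59 ± 0.12 (limma adjusted p 0.00335) without replicate 6.

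Tapbp encodes tapasin, which bridges the transporter and the empty class I molecule. In O4+ cells at P5 it rose from 10.04, 10.27 and 10.45 to 10.84, 11.12 and 11.49 (0.86 ± 0.10, limma adjusted p 0.00021, ratio 1.81). At P10 the values were 9.91, 10.02 and 10.23 under PBS and 10.32, 10.57 and 10.89 after IL1B. The groups did not overlap there either, but the difference of 0.54 ± 0.09 (limma adjusted p 0.00617) had a ratio of 1.47 and was not called. In CD11B+ cells the differences of 0.52 ± 0.08 (limma adjusted p 0.000933, ratio 1.38) at P5 and 0.41 ± 0.07 (limma adjusted p 0.0176, ratio 1.40) at P10 were below the fold threshold as well. The CD11B+ values were 11.998 to 12.274 under PBS and 12.43 to 12.96 after IL1B at P5, and 12.004 to 12.334 and 12.348 to 12.671 at P10. Tapbp was the 1 gene of the list whose groups did not overlap in CD11B+ cells at P10 with all 12 arrays.

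Psmb8 and Psmb9 are catalytic immunoproteasome subunits encoded on either side of Tap1. Psmb8 in O4+ cells went from 8.61, 8.9985 and 9.28 to 10.39, 10.53 and 11.16 at P5 and from 7.87, 8.28 and 8.46 to 9.47, 9.90 and 10.21 at P10. The differences were 1.62 ± 0.14 (limma adjusted p 1.98e-05) and 1.61 ± 0.14 (limma adjusted p 0.000697), and the interaction with age was -0.01 (95% interval -0.43 to 0.41). In CD11B+ cells it went from 12.07, 12.14 and 12.32 to 12.71, 12.81 and 13.10 at P5 (0.72 ± 0.08, limma adjusted p 5.1e-05). At P10 it was at 12.03, 12.09 and 13.07 under PBS and at 12.81, 13.26 and 13.39 after IL1B (0.93 ± 0.18, limma adjusted p 0.0193), or 1.09 ± 0.11 (limma adjusted p 0.000487) without replicate 6. The response was larger in O4+ cells by 1.04 ± 0.17 (limma adjusted p 0.000178; call lost with the slide as a block) at P5 and by 0.79 ± 0.23 (limma adjusted p 0.038) at P10, or 0.64 ± 0.19 (limma adjusted p 0.0359) without replicate 6. The P10 call was kept in 13 of 24 fits with 1 array left out.

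Psmb9 showed the largest response of the 10 genes in O4+ cells at P5, from 8.54, 8.87 and 9.02 to 10.22, 10.44 and 11.41 (1.76 ± 0.18, limma adjusted p 7.58e-05, ratio 2.98). At P10 it went from 7.98, 8.21 and 8.38 to 9.64, 10.12 and 10.72 (1.89 ± 0.16, limma adjusted p 0.000565, ratio 3.74). Both pairs of groups were clear of each other by more than 1 log2 unit. In CD11B+ cells it went from 11.65, 11.71 and 11.88 to 12.53, 12.66 and 13.24 at P5 (1.05 ± 0.12, limma adjusted p 6.26e-05). At P10 it was at 11.86, 11.97 and 13.03 under PBS and at 12.83, 13.20 and 13.68 after IL1B (1.06 ± 0.20, limma adjusted p 0.0197), or 1.23 ± 0.13 (limma adjusted p 0.00069) without replicate 6. The O4+ response exceeded that of CD11B+ cells by 0.86 ± 0.23 (limma adjusted p 0.0159; call lost with the slide as a block) at P5 and by 0.97 ± 0.27 (limma adjusted p 0.028) at P10, or 0.80 ± 0.22 (limma adjusted p 0.0265) without replicate 6. The second probe of Psmb9, at chr17:34322762-34322821, was not well above background on any array of 7 groups and on 1 of 6 CD11B+ P10 IL1B arrays. Its values are therefore mostly bounds. Its calls were 1 in an IL1B comparison (CD11B+ P10), 1 between cell types (IL1B at P10) and 2 in interactions. They are differences from values near the floor and are not read against the lead probe.

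Psmb10, the subunit encoded outside the H2 locus, differed from the other catalytic subunits. In O4+ cells at P5 it went from 12.94, 13.09 and 13.21 to 13.44, 13.56 and 13.91 without overlap (0.51 ± 0.08, limma adjusted p 0.000846), and its ratio of 1.39 was not called. At P10 the values were 13.06, 13.09 and 13.20 under PBS and 13.10, 13.17 and 13.36 after IL1B, which overlapped (0.09 ± 0.05, limma adjusted p 0.34). Its response in O4+ cells was thus smaller at P10 by 0.42 ± 0.09 on the log2 scale, a difference that passed the test (interaction -0.42, limma adjusted p 0.00341). In CD11B+ cells Psmb10 gave 0.40 ± 0.09 (limma adjusted p 0.0072) at P5, from 14.14 to 14.36 under PBS to 14.42 to 14.99 after IL1B. At P10 it gave 0.29 ± 0.08 (limma adjusted p 0.0541), and 0.33 ± 0.07 (limma adjusted p 0.0138) without replicate 6, with ratios of 1.23 and 1.25 and no call.

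The difference between responses was tested for all 10 genes. Of the interactions with age in O4+ cells, 1 was called higher at P10 (H2-Q8) and 1 lower (Psmb10), against 7.83% of all probes higher and 5.32% lower. In CD11B+ cells 1 was called higher (H2-Q8), against 10.5% of all probes higher and 6.30% lower. Without PBS replicate 6, 4 genes had a larger response at P10, namely B2m (0.42 ± 0.09, limma adjusted p 0.00197), H2-K1 (0.90 ± 0.21, limma adjusted p 0.00485), H2-D1 (0.90 ± 0.21, limma adjusted p 0.00396) and H2-Q8, against 11.0% of all probes. Psmb8 gave 0.37 ± 0.13 (limma adjusted p 0.0597) in that fit. At P5, 5 genes responded more in O4+ than in CD11B+ cells (B2m, H2-K1, H2-Q8, Psmb8 and Psmb9), against 6.93% of all probes higher and 3.78% lower. H2-K1 was there at 0.81 ± 0.23 (limma adjusted p 0.0274), but its second probe gave 0.22 (limma adjusted p 0.57). That probe in turn had a larger response at P10 in CD11B+ cells with all arrays (0.95, limma adjusted p 0.0418), where the lead probe was not called (0.72, limma adjusted p 0.0683). For O4+ minus CD11B+ at P10 the 2 probes of H2-K1 differed in sign and neither was called. The lead probe gave 0.72 (limma adjusted p 0.0779, 0.55 without replicate 6) and the second -0.17 (limma adjusted p 0.797). With the slide as a block, 1 of the 10 interactions was called at P5 in place of 5, 4 at P10, 1 for age in O4+ cells and 0 for age in CD11B+ cells. At P5 the call of B2m was kept (1.07, limma adjusted p 0.0075), and those of H2-K1 (0.55), H2-Q8 (0.54), Psmb8 (0.89) and Psmb9 (0.62) were lost, with limma adjusted p values from 0.103 to 0.618. The calls over all probes in these blocked fits were 2.62% higher and 1.43% lower at P5, 1.89% and 2.29% at P10, 3.62% and 3.39% for age in O4+ cells and 2.77% and 1.89% for age in CD11B+ cells. At P10 there were 4 (B2m, Tap2, Psmb8 and Psmb9), against 3.92% higher and 3.65% lower, and none of the 10 was called the other way at either age.

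Between P5 and P10 under PBS, 6 of the 10 genes fell in O4+ cells and none rose, against 8.96% of all probes called lower and 7.85% called higher. B2m fell by 1.14 ± 0.14 on the log2 scale (limma adjusted p 4.51e-05) and Tap2 fell by 1.02 ± 0.09 (limma adjusted p 3.64e-06), with no overlap between the ages. Psmb8 fell by 0.74, H2-K1 by 0.72, Psmb9 by 0.61 and Tap1 by 0.59, each with a limma adjusted p of 0.00356 or less. With 1 array left out in turn, the calls of H2-K1 and Psmb9 were each kept in 9 of 12 fits. The count of 6 then ran from 4 (without O4+ P10 PBS replicate 5) to 7. The second probe of H2-K1 gave -0.37 (limma adjusted p 0.0537) and was not called. H2-Q8 differed by -0.61 ± 0.15 (limma adjusted p 0.00637), with a ratio of medians of 0.68 that was not called, and H2-D1, Tapbp and Psmb10 differed by -0.31, -0.21 and 0.02. Arrays of the 2 ages never shared a slide, so age and slide cannot be separated by a comparison within slides.

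In CD11B+ cells under PBS none of the 10 genes was called between the ages by limma, against 4.65% of all probes higher and 3.61% lower. Their differences lay between 0.03 and 0.43, with 2 genes at an unadjusted p under 0.05 and 0 by the adjusted p alone. Without PBS replicate 6 the differences lay between -0.17 (H2-Q8) and 0.24 (Psmb9) and none was called, since Psmb9 (limma adjusted p 0.0198) had a ratio of 1.19. Whether the change with age differs between O4+ and CD11B+ cells was not tested.

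Levels were higher in CD11B+ than in O4+ cells for 10 of 10 genes in each of the 4 comparisons. Called higher among all probes were 21.8% for PBS at P5, 20.2% for PBS at P10, 24.4% for IL1B at P5 and 21.0% for IL1B at P10. The median difference over the genes was 2.13 at P5 under PBS, 2.99 at P10 under PBS (2.82 without replicate 6), 1.55 at P5 after IL1B and 2.59 at P10 after IL1B. The largest of them was that of Psmb8 at P10 under PBS, 4.29 ± 0.17 (limma adjusted p 5.83e-10, ratio 16.9; 4.14 without replicate 6), and the smallest that of Psmb10 at P5 after IL1B, 0.96 ± 0.10 (limma adjusted p 4.94e-06, ratio 1.93). At P10 under PBS no slide held arrays of both cell types, so cell type and slide cannot be separated within slides there. For 8 of 10 genes no O4+ array reached a CD11B+ array of any group, which held for 10.8% of all probes. The exceptions were Tap1, where the highest O4+ array stood at 8.86 and the lowest CD11B+ array at 8.32, and Tap2, with 12.90 and 12.73.

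Ordered by mean level over all 8 groups, O4+ P10 PBS was the lowest group for 9 genes and the second lowest for Psmb10. Above it, O4+ P5 PBS was the next for B2m, H2-K1, H2-D1, H2-Q8, Tap1, Tap2, Tapbp, Psmb8 and Psmb9, and the O4+ IL1B groups followed. The top group was CD11B+ P10 IL1B for B2m (16.54 ± 0.12, SD, n = 6), H2-K1, H2-D1, H2-Q8, Tap1, Psmb8, Psmb9 and Psmb10, and CD11B+ P5 IL1B for Tap2 and Tapbp. Of the 70 steps between neighbours in these orders, 43 passed an exact permutation test (2-sided, Benjamini-Hochberg adjusted over the 70, smallest possible p 0.00216) and 27 did not. The count was again 43 without CD11B+ P10 PBS replicate 6. The step from the O4+ to the CD11B+ groups passed for 9 genes and missed for Tap1 (0.48, exact adjusted p 0.0505). Steps that did not pass lay inside both cell types. Examples in CD11B+ cells were those of Tap2 between IL1B at P10 and at P5 (0.01, exact adjusted p 0.94) and of Tap1 between IL1B at P5 and at P10 (0.06, exact adjusted p 0.829).

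Marker genes of other cells moved with these results in O4+ cells. After IL1B at P5, 10 of 15 microglia markers were called higher in O4+ cells, and their summed signal was 593300 to 728000 against 360600 to 443500 under PBS, a ratio of medians of 1.63. Tmem119 gave 1.08 ± 0.09 and Csf1r 1.05 ± 0.10. At P10 7 of 15 were called higher, with a median log2 difference of 0.50 over the list, while the sums overlapped, at 300400 to 412300 against 288500 to 379200, a ratio of 0.99. The 7 neutrophil and monocyte markers were higher in 7 of 7 cases at P5 and 5 of 7 at P10, with sums of 1363 to 33310 against 108.3 to 284.5 and of 346.2 to 1369 against 61.81 to 206.5. Of these markers, Ngp, Ltf, Mmp8 and Ccr2 were well above background on no O4+ PBS array at either age. Their differences rest on PBS values near the floor. Mmp8 and Ccr2 were well above background on no O4+ P10 IL1B array either. From P5 to P10 under PBS, 12 of 15 microglia markers were called lower in O4+ cells, with a median log2 difference of -1.23 over the list, against -0.61 over the 10 genes. The ratio of the summed medians was 0.82, in a sum that includes the bright probes of Siglech and Itgam, which differed by -0.04 and 0.97. Of 6 endothelial markers 3 were called lower there (ratio 0.57), and of 11 oligodendrocyte lineage markers 4 were called higher and 2 lower (ratio 1.52). The sum of 4 neuron markers was 42150 to 60140 at P5 and 96690 to 127300 at P10, without overlap (ratio 2.42). It is mostly the signal of Snap25 (1.23 ± 0.09, the 1 marker called), and the list's median log2 difference was -0.33. After IL1B at P10 the neuron sum in O4+ cells was 64420 to 102400 and no marker of the list was called. In CD11B+ cells after IL1B no microglia marker was called higher at either age, and 3 of 15 were called lower at P5. The neutrophil and monocyte markers were higher there in 7 of 7 at P5, with sums of 323300 to 484700 against 26370 to 60070 (ratio 11.5). At P10 0 of 7 were called higher, where the sums were 55570 to 110700 after IL1B against 27940 to 154300 under PBS. Without PBS replicate 6, 6 of 7 were called higher and the other 5 PBS arrays, at 27940 to 39320, lay below every IL1B array. The summed signal of 11 oligodendrocyte lineage markers was lower after IL1B in CD11B+ cells without overlap, at 15250 to 21250 against 23610 to 37890 at P5 and at 40750 to 57050 against 65210 to 114400 at P10. Of these markers 2 were called higher and 3 lower at P5, and 2 lower at P10 (4 without replicate 6). The neuron sum in these cells was 8282 to 9214 after IL1B against 10980 to 15890 under PBS at P10, and 7527 to 61970 against 8374 to 9268 at P5. The single markers did not all follow the sum at P10. Without replicate 6, 2 of the 4 were called higher and 1 lower, with a median log2 difference of 0.35 over the list. Of 6 astrocyte markers, 3 were called higher after IL1B in O4+ P10 cells (Aqp4 0.73, Aldh1l1 0.65 and Slc1a3 0.57), with sums of 45230 to 55820 against 30700 to 43530, and none at P5. In CD11B+ cells 1 of 6 was called higher at P5 (Gja1, 0.79) and 1 at P10 (Aldh1l1, 0.97), or 4 at P10 without replicate 6, with a median log2 difference of 0.74 over the list. Of 6 endothelial markers, 4 were called lower after IL1B at P5 in O4+ cells (ratio of summed medians 0.45) and 4 in CD11B+ cells (0.55), and none at P10. Of all probes, 3.43% were called higher and 1.49% lower after IL1B in O4+ P5 cells, and 2.49% and 1.42% in O4+ P10 cells. These shares were 4.05% and 5.25% in CD11B+ P5 cells and 1.09% and 1.08% in CD11B+ P10 cells, with 2.54% higher without replicate 6. With age in O4+ cells under PBS they were 7.85% and 8.96%. A single call in a list of 4 or 6 markers is near these shares. The part of other cells in the results for the 10 genes was not tested.

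Other genes of the pathway were counted from lists by function. Of 22 other class I and class I-like heavy chain genes, 12 were called higher after IL1B in O4+ P5, 12 in O4+ P10, 7 in CD11B+ P5 and 11 in CD11B+ P10 cells (12 without replicate 6), and none lower. The shares of all probes called higher were 3.43%, 2.49%, 4.05% and 1.09% (2.54% without replicate 6). In O4+ P5 cells the largest were Hfe (1.22), H2-M3 (0.92), H2-Bl (0.91) and Mr1 (0.86), and in O4+ P10 cells H2-T9 (1.49), H2-M3 (1.42), H2-K2 (1.38) and H2-T23 (1.22). In CD11B+ P10 cells they were H2-Q5 (1.80), H2-Q10 (1.79), H2-Bl (1.70) and H2-Q2 (1.64), or 2.12, 2.11, 2.02 and 1.93 without replicate 6. They were in CD11B+ P5 cells H2-Bl (1.00), H2-Q10 (0.93), H2-T9 (0.72) and Cd1d1 (0.69). The median of the list was 0.63, 0.77, 0.56 and 1.10 in O4+ P5, O4+ P10, CD11B+ P5 and CD11B+ P10 cells (1.29 without replicate 6 in the last). Between P5 and P10 under PBS, 9 of the 22 were called lower in O4+ cells, against 8.96% of all probes, with Cd1d1 at -1.35, whereas Cd1d1 was higher in CD11B+ cells by 0.91 (limma adjusted p 0.000313), or 0.99 (limma adjusted p 9.45e-05) without replicate 6.

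Of 6 genes for loading and trimming, which include the chaperones Calr, Canx and Pdia3, none was called in O4+ P5 cells, Erap1 (0.60), a trimming peptidase, in O4+ P10 cells, and Tapbpl, a relative of tapasin, in CD11B+ cells at P5 (0.79) and P10 (0.57, or 0.64 without replicate 6). The shares of all probes called higher were 3.43%, 2.49%, 4.05% and 1.09%, so 0 or 1 of 6 is near them. The IL1B response in CD11B+ cells was higher at P10 than at P5 for Calr (0.49, limma adjusted p 0.000979), Canx (0.37, limma adjusted p 0.00024) and Pdia3 (0.34, limma adjusted p 0.0215), and lower for the peptidase gene Lnpep (-0.50, limma adjusted p 0.00406). These 4 calls held without replicate 6. In O4+ cells 1 of the 6 interactions with age was called, that of Lnpep (-0.57, limma adjusted p 0.000464). Over all probes these interactions were called higher and lower in 10.5% and 6.30% of cases in CD11B+ cells and in 7.83% and 5.32% in O4+ cells.

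Of 14 constitutive proteasome subunits, 0 were called in any of the 4 IL1B comparisons or either comparison of ages, with list medians from -0.21 to 0.12. Of all probes, 1.09% to 4.05% were called higher and 1.08% to 5.25% lower after IL1B, so a count of 0 in 14 is near that share. Between the ages, the shares called higher and lower were 7.85% and 8.96% in O4+ cells and 4.65% and 3.61% in CD11B+ cells. The IL1B response in CD11B+ cells was higher at P10 than at P5 for 10 of the 14, called on adjusted p alone, where 10.5% of all probes were. The highest of these interactions were Psmb5 (0.60, limma adjusted p 4.11e-05), Psmb6 (0.58, limma adjusted p 1.29e-05) and Psmb7 (0.53, limma adjusted p 4.81e-05), the counterparts of the immunoproteasome subunits, and the count was again 10 without PBS replicate 6. Among 7 proteasome activators and assembly factors, Psme3 was called in O4+ P10 cells (0.89) and no other in an IL1B comparison with all arrays, which is near the same shares of all probes. Without PBS replicate 6, Psme1 was called in CD11B+ P10 cells (0.55, limma adjusted p 0.00184). The interferon-inducible activator subunits Psme1 and Psme2 gave 0.34 ± 0.04 (limma adjusted p 0.00032) and 0.36 ± 0.05 (limma adjusted p 0.000558) in O4+ P5 cells, below the fold threshold.

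Of 16 regulators, 5 were called higher in O4+ P5, 3 in O4+ P10, 4 in CD11B+ P5 and 2 in CD11B+ P10 cells, against 3.43%, 2.49%, 4.05% and 1.09% of all probes. Nlrc5 was called in all 4. In O4+ cells it was at 4.73, 5.11 and 5.32 at P5 under PBS and at 7.63, 8.03 and 9.75 after IL1B (3.28 ± 0.32, limma adjusted p 4.81e-05). At P10 it was well above background on only 1 of 6 PBS arrays, with values of 4.09 to 4.50, and on 6 of 6 IL1B arrays, with 6.61 to 8.42 (3.05 ± 0.26, limma adjusted p 0.000565), so that difference rests on PBS values near background. In CD11B+ cells it gave 3.68 ± 0.27 (limma adjusted p 3.14e-06) at P5 and 3.07 ± 0.64 (limma adjusted p 0.0238) at P10, or 3.63 ± 0.40 (limma adjusted p 0.000797) without replicate 6. Irf1, an interferon-responsive transcription factor, was called in O4+ P5 (0.83), O4+ P10 (0.82) and CD11B+ P10 cells (0.68, or 0.75 without replicate 6), and Irf8, a factor of myeloid cells, in O4+ cells at P5 (1.31) and P10 (0.76). The receptor genes Ifngr1 (0.89) and Ifngr2 (0.78) were called in O4+ P5 cells, and Stat2 (0.84) and Irf9 (0.67) in CD11B+ P5 cells. From P5 to P10 under PBS, Irf8 fell by 1.59 and Irf1 by 1.40 in O4+ cells. Nlrc5 differed there by -0.69, with the P10 values near background as above.

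The exchange of catalytic subunits was examined as the change in the log2 ratio of each immunoproteasome subunit to its constitutive counterpart, which compares changes and not levels. Psmb8 over Psmb5 changed after IL1B by 1.87 in O4+ P5, 1.69 in O4+ P10, 1.22 in CD11B+ P5 and 0.83 in CD11B+ P10 cells (0.96 without replicate 6). Psmb9 over Psmb6 changed by 1.85, 1.95, 1.42 and 0.85 in the same order (0.99 without replicate 6 in the last). In the first 3 comparisons all 6 IL1B arrays were above all 6 PBS arrays for both ratios (exact permutation p 0.00216, adjusted over 18 tests 0.00325), and in CD11B+ P10 cells 5 of 6 were (exact permutation p 0.00433, adjusted 0.00519). Psmb10 over Psmb7 changed by 0.60 in O4+ P5 and 0.72 in CD11B+ P5 cells (exact permutation adjusted p 0.00325 in both), but by 0.06 (exact permutation p 0.506) in O4+ P10 and 0.08 (exact permutation p 0.266) in CD11B+ P10 cells. The counterparts entered these ratios. In O4+ cells at P5 Psmb5, not called, was at -0.25 ± 0.05 after IL1B, while Psmb8 itself was at 1.62. In CD11B+ cells at P5, Psmb5 was at -0.50 ± 0.07, Psmb6 at -0.38 ± 0.06 and Psmb7 at -0.32 ± 0.06 after IL1B, none of them called. At P10 in the same cells Psmb6 was at 0.21 ± 0.05 and Psmb7 at 0.21 ± 0.05, again not called, while Psmb10 itself was at 0.29. From P5 to P10 under PBS, Psmb8 over Psmb5 fell by 0.83 and Psmb9 over Psmb6 by 0.82 in O4+ cells, and were higher by 0.43 and 0.85 in CD11B+ cells (0.29 and 0.71 without replicate 6). In O4+ cells Psmb6 was at 0.20 ± 0.05 and Psmb5 at 0.10 ± 0.05, neither called. In CD11B+ cells the counterparts entered with Psmb5 at -0.30 ± 0.07 and Psmb6 at -0.43 ± 0.06, whereas Psmb8 differed by 0.13 ± 0.16 (-0.03 without replicate 6) and Psmb9 by 0.41 ± 0.18 (0.24 without it), and none of these 4 genes was called. Psmb10 over Psmb7 differed between the ages by -0.06 in O4+ cells (exact permutation p 0.431) and by 0.25 in CD11B+ cells (6 of 6 P10 arrays above all P5 arrays, exact permutation adjusted p 0.00325; 0.23 without replicate 6).

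**Figure D4:**
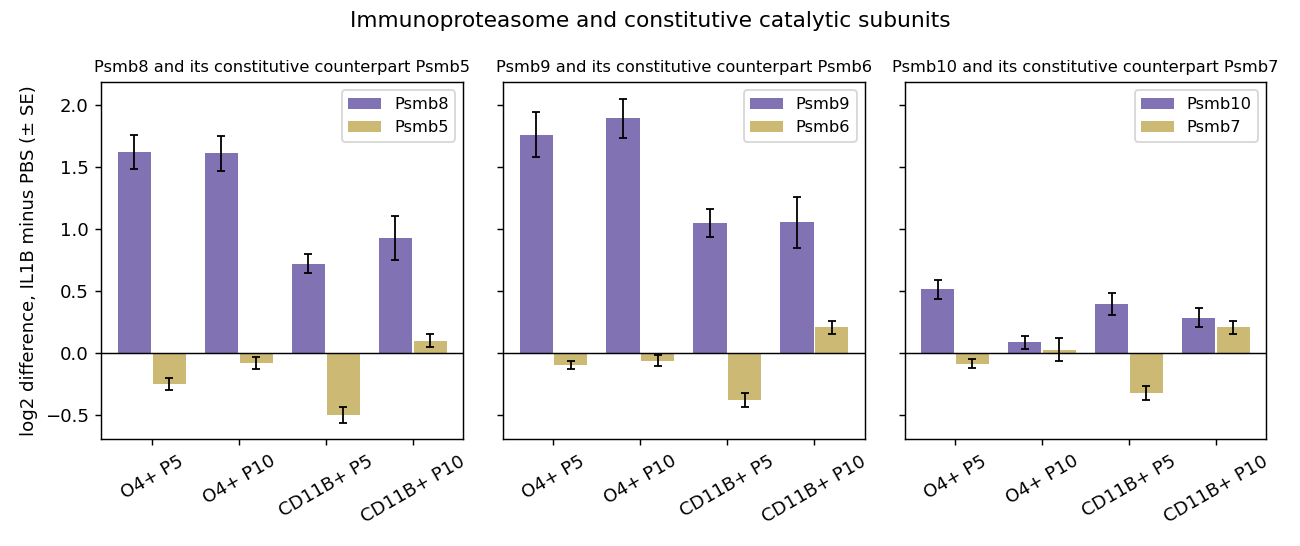
Log2 difference of IL1B minus PBS with its SE (y axis) for each immunoproteasome subunit (purple) beside its constitutive counterpart (yellow) in the 4 comparisons (x axis). Psmb8 and Psmb9 are above 0 in all 4 whereas Psmb5 and Psmb6 stay within 0.50 of 0, and Psmb10 is at 0.09 in O4+ P10 cells.

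The 10 genes also varied together among arrays of 1 group. After each group's mean was taken off, all 45 pairs of genes had a Pearson correlation above 0 over the 24 O4+ arrays, with a median of 0.45 and a range from 0.03 to 0.89. These arrays include O4+ P5 IL1B replicate 4, the highest of its group for all 10 genes, and no value without it is given. Over the 24 CD11B+ arrays the median was 0.67 with 45 of 45 above 0, and without PBS replicate 6 it was 0.39 with 43 of 45 above 0 over 23 arrays. These arrays share slides and normalization, and the values are given as a description. With the mean of the 10 genes, the residual correlation in O4+ arrays was 0.49 for the astrocyte markers, 0.45 for the neuron markers, 0.43 for the microglia markers, 0.38 for the neutrophil and monocyte markers and 0.33 for the endothelial markers. It was -0.24 for the oligodendrocyte lineage markers and -0.03 for the T and NK cell markers. In CD11B+ arrays the highest were 0.78 for the neutrophil and monocyte markers and 0.51 for the T and NK cell markers, or 0.30 and 0.20 without replicate 6, and the microglia markers were at -0.40, or -0.15 without it. The other 4 marker lists lay between -0.19 and 0.27 in CD11B+ arrays, and between -0.38 and 0.38 without replicate 6.

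Genes outside the lists were ranked by their Pearson correlation with the mean of the standardized values of the 10 genes over the 24 arrays of a cell type. In O4+ cells the most alike of 24069 genes were Gvin1 (0.97), Igtp (0.97), Cfb (0.95), D14Ertd668e (0.95) and Tgtp2 (0.95). In CD11B+ cells, among 23099 genes, Cd74 (0.95), Gm11127 (0.95) and H2-Ab1 (0.94) were the most alike of those well above background on all 24 arrays, and gave the same rounded values without replicate 6. Klrg1 and Klrc1, known as receptors of natural killer and T cells, had values of 0.96 each, but they were well above background on only 10 and 7 of the 24 arrays, so these values rest largely on arrays near the floor. Each was well above background on 1 of 6 CD11B+ P10 PBS arrays, and the highest values there, 5.16 for Klrg1 and 4.74 for Klrc1, were those of replicate 6. Cd74, the invariant chain of MHC class II, was at 13.2 in that array against 11.1 to 11.7 in the other 5. Among the 10 genes themselves, Psmb8 (0.99) and Psmb9 (0.98) were closest to the mean in O4+ cells and H2-D1 the farthest (0.80), and in CD11B+ cells Psmb9 (0.98) and Psmb8 (0.98) were the closest and Tapbp the farthest (0.83). Without replicate 6 the farthest in CD11B+ cells was H2-K1 (0.850), with Tapbp at 0.853.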

How the data were processed

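RNA from 48 samples was hybridised to Agilent 8x60K mouse arrays with 1 dye, and the intensities were deposited as scanner output: per the file headers, Feature Extraction had subtracted background and detrended the signal within each array. The authors also deposited values on a ratio scale, whose log2 values differ from the log2 signal by 1 constant for each array within 3.69e-05; these were used as an alternative. Non-uniform spots (278 of 59305) were left out and 0 were saturated. The log2 intensities were quantile normalized, spots of a probe were averaged (55681 probes), and limma 3.58.1 (R 4.3.3, statmod 1.5.0) was fitted to each pair of groups of 6, with Benjamini-Hochberg adjustment over all probes. Interactions were called on adjusted p alone. Levels of neighbouring groups and subunit ratios were compared with 2-sided exact permutation tests. The fit was tested on simulated data.

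All 10 genes are named, each by its brightest probe; second probes are named where their call or sign differs. Other genes were taken from fixed lists by function, and those with the largest changes are named, apart from a gene that is not reported here. The genes and lists were chosen with earlier results of these data known. Alternatives were 75th percentile scaling, normexp background correction (offset 50), other arrays normalized together, the deposited ratios, a filter on dim probes, the methods' t-test, no fold threshold, 1 fit for all groups, slide, scan day or replicate number as a block, and leaving out each array. The number of arrays limits the precision. The labels do not say that a replicate number marks shared animals. Deviations of same-numbered arrays correlated over 0.1 in at most 4 of 6 pairs of any comparison. That was CD11B+ with O4+ cells after IL1B at P10, where all 6 correlations were positive (0.0744 to 0.404) and 6 of 6 arrays matched best with their own number, as did 5 of 6 under PBS at P10. Since no comparison had every pair over 0.1, the replicate number was kept as an alternative block.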

Additional observations from a re-analysis of the deposited data

Results flagged for a closer look

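Of 80 combinations of a gene and a group, 17 held an array far from the other 5, where chance would give about 1 in 20. The library labelled CD11B+ P10 PBS replicate 6 stood above its group for 7 of these, namely B2m (16.78), H2-K1 (16.02), H2-D1 (15.91), H2-Q8 (12.44), Tap1 (9.323), Psmb8 (13.07) and Psmb9 (13.03). O4+ P5 IL1B replicate 4, the highest of its group for 10 of 10 genes, stood apart for B2m (14.96), H2-Q8 (9.212), Tap1 (9.078), Tap2 (12.89), Psmb8 (11.16) and Psmb10 (13.91). Single arrays stood apart for Tap1 in CD11B+ P10 IL1B replicate 4, the lowest at 9.077, Tap2 in O4+ P5 PBS replicate 1, the lowest at 11.55, Tap2 in CD11B+ P5 IL1B replicate 4 at 13.86, and Psmb10 in O4+ P10 PBS replicate 6 at 13.2. All values are log2 intensities.

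The response to IL1B, as a log2 difference, differed between ages or cell types by the interaction test in 12 cases. The shares of all probes called higher and lower were 7.83% and 5.32% for age in O4+ cells, 10.5% and 6.30% for age in CD11B+ cells, 6.93% and 3.78% for cell type at P5 and 3.92% and 3.65% at P10, so the 2 and 1 calls of 10 genes with age are near the share over all probes. From P5 to P10 it grew for H2-Q8 by 0.8119 in O4+ and 1.719 in CD11B+ cells, and Psmb10 in O4+ cells had -0.4247. Both H2-Q8 calls were lost with the slide or the scan day as a block. With 1 array left out they were kept in 8 of 24 fits in O4+ and 9 of 24 in CD11B+ cells. At P5 the response was larger in O4+ than in CD11B+ cells for B2m (1.108), H2-K1 (0.8095), H2-Q8 (0.8974), Psmb8 (1.037) and Psmb9 (0.8611), of which B2m alone kept its call with the slide as a block. At P10 it was larger in O4+ cells for B2m (1.201), Tap2 (0.6774), Psmb8 (0.7916) and Psmb9 (0.9671). The part of single arrays, slides or other cell types in these differences was not tested beyond the values given above.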

How the results depend on the processing

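The counts of genes called higher after IL1B in O4+ cells, lower with age in O4+ cells and higher in CD11B+ than in O4+ cells stayed within 1.5 times their values under every alternative. Those for CD11B+ cells and for interactions did not, and the cause was not tested. In CD11B+ P5 cells the count of 5 became 8 with no fold threshold and 3 with the slide as a block. In CD11B+ P10 cells the count of 6 became 0 with the slide as a block, as did the count over all probes (3 of the 10 genes with PBS replicate 6 left out as well, an alternative chosen after seeing the data, as was scan day), and from 1 (without PBS replicate 2) to 7 (without PBS replicate 6) with 1 array left out. Of the interactions, the 5 for cell types at P5 became 3 with 75th percentile scaling, 3 with the deposited ratios and 1 with the slide as a block. The 4 at P10 became 2 with other arrays normalized together and 2 with the deposited ratios.

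The 2 interactions with age in O4+ cells became 1 with normexp, the methods' t-test, the slide, the scan day or the replicate block. With 1 array left out the count ran from 1 to 4. It was 4 without P5 IL1B replicate 4, and 1 without P5 PBS replicates 2, 5 or 6, P5 IL1B replicates 1, 2, 3, 5 or 6, P10 PBS replicates 3, 4, 5 or 6, or P10 IL1B replicates 1, 3, 5 or 6. The replicate block moved no other count by over 1.5 times. The 1 interaction with age in CD11B+ cells became 2 with only probes above background, 0 with the slide or the scan day as a block, and 25% of probes when second probes were counted, among them the second probe of Psmb9, whose values lie near the floor. With 1 array left out it ran from 0 to 4. It was 4 without P10 PBS replicate 6, 2 without P5 IL1B replicate 6, and 0 without P5 PBS replicates 1, 2 or 6, P5 IL1B replicates 1, 2 or 5, P10 PBS replicates 2, 3, 4 or 5, or P10 IL1B replicates 1, 3, 5 or 6.

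Log2 differences near 0 changed sign. Psmb10 after IL1B in O4+ P10 cells was -0.076 with 75th percentile scaling and -0.055 with the deposited ratios. Between ages in CD11B+ cells, Tapbp was -0.044 and Psmb10 -0.018 with 75th percentile scaling, and Tapbp was -0.0092 with the deposited ratios. The interaction of H2-D1 with age in CD11B+ cells was -0.00741 with the slide as a block. With 1 array left out, the difference between ages ran in CD11B+ cells from -0.171 to 0.510 for H2-Q8, -0.018 to 0.213 for Tap1, -0.0060 to 0.060 for Tapbp and -0.031 to 0.178 for Psmb8, and in O4+ cells from -0.0092 to 0.045 for Psmb10.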
